A study of Homo sapiens with 12 samples.

Results

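The genes described here are 9 established targets of KMT2A fusion proteins outside the HOXA cluster: MEIS1, PBX3, MEF2C, RUNX2, EYA1, JMJD1C, FLT3, PROM1 and CDK6. They were chosen by name, and selected on their deposited values in untreated cells of both lines and their changes at both doses, with EYA1 picked out because its change had opposite signs in the 2 lines. For that reason the members' levels and changes are a description: no p-value is given for a member, and counts of members past the threshold used for all genes stand only beside the share of all genes past it. Each gene stands for 1 probe set, the one with the highest mean over all arrays among those with that single gene symbol. All 9 members were among the 10561 genes kept, of 19775 genes with such a probe set.

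RNA was measured on Affymetrix U133 Plus 2 arrays in 2 established human lines, RS4:11 and SEM-K2, both from acute lymphoblastic leukaemia and both with a KMT2A-AFF1 (MLL-AF4) fusion. Cells of each line received vehicle, obatoclax at its 72 h EC50 (the concentration that gives a halfway effect when cells are exposed for 72 h), or obatoclax at 3 times that concentration (3xEC50), for 6 h. Obatoclax is a small molecule made against the antiapoptotic BCL2 proteins. Each of the 6 groups had 2 biologic replicates, 12 arrays in all. All groups share the fusion, and the labels name neither the concentrations nor the vehicle. A difference between the lines is a difference between 2 cell lines, each a single line of cells. The labels call the replicates biologic without naming separate cultures, so a p-value here reflects how far these samples lie apart, which may be technical.

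In normal cells the protein KMT2A marks active chromatin at the start of developmental genes. The fusion keeps the part of KMT2A that binds DNA and joins it to AFF1, a protein of the transcription elongation machinery, and so keeps genes of early blood progenitors in an active state. Among them are the HOXA genes, their cofactors MEIS1 and PBX3, and receptors and cell cycle genes on which these leukaemias lean. The part that the fusion retains includes a CXXC domain, which binds unmethylated CG dinucleotides, so the CG content of the members' start regions is shown first.

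RefSeq start regions (GRCh38.p14) were at hand for 8 of the 9 members, in 21 entries, since a gene can have several starts; none is printed for EYA1. In the 250 bases before each start, the members' entries held 0 to 36 CG dinucleotides with a median of 16, against a median of 11 over all 35116 entries. Of the 21 member entries 12 held at least 11. As 11 is the median over all entries, and a gene with several starts counts several times, nothing is read from this count. Starts of the same gene could differ: RUNX2 had 0 CG before its upstream start and 34 before its downstream start, and the 7 entries of MEF2C ran from 0 to 28. Those of JMJD1C ran from 5 to 35 and those of PROM1 from 5 to 26, and CDK6 had 30 and 23. The 3 members printed below have 1 entry each and stand for the 3 patterns seen between untreated lines: a like level (MEIS1), a higher level in RS4:11 (PBX3) and a higher level in SEM-K2 (FLT3). CG dinucleotides are in capitals, and each sequence runs 5' to 3' on the gene's strand.
MEIS1, chr2:66434875-66435124, + strand: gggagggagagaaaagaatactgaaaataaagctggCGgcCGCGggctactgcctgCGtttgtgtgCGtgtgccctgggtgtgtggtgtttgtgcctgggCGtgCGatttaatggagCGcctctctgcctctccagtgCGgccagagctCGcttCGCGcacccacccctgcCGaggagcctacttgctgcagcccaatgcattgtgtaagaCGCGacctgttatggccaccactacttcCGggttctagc
PBX3, chr9:125747933-125748182, + strand: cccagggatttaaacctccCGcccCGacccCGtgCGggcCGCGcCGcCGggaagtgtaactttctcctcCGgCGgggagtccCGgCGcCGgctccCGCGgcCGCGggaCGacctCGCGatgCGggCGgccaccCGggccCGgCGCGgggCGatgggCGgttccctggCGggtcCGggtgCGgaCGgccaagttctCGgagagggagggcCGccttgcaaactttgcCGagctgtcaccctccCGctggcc
FLT3, chr13:28100577-28100826, - strand: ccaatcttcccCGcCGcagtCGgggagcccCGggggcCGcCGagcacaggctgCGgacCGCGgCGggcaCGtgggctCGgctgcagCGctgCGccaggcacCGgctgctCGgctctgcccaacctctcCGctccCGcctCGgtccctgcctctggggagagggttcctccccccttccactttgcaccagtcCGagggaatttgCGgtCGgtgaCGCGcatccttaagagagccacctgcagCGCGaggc
The MEIS1 region held 16 CG, a number that 41% of all entries reached or passed. The PBX3 region held 36, reached by 4.85% of entries, and the FLT3 region 26, reached by 19.6%. The letters TGACAG, the core that MEIS proteins recognise, were searched on both strands and stood once before PBX3 and not before MEIS1 or FLT3; 13% of all entries hold them. The letters TGTGGT, the core that RUNX proteins recognise, stood once before MEIS1 and not before PBX3 or FLT3, and 11% of all entries hold them. Among the member entries not printed, TGACAG stood before some starts of MEF2C. TGTGGT stood before the upstream start of RUNX2 and before a start of JMJD1C. These matches are letters in a window and say nothing of binding in these cells.

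The deposited values are log2 values after GCRMA, a method that corrects background by probe sequence and normalises between arrays, and a mean under 4 on this scale was read as not above the floor. Precision is limited by the number of arrays. Both lines showed their labelled lineage: the B cell precursor markers CD79A, CD79B, PAX5, EBF1, VPREB1, IGLL1 and CD22 were above the floor in both, while DNTT and RAG1 were above it in RS4:11 and below it in SEM-K2. Of 6 T and NK cell markers NKG7 was above the floor, of 5 fibroblast and epithelial markers COL1A1, and of 6 myeloid and 3 erythroid markers none was, in either line. On SEM-K2 3xEC50 replicate 2 the ACTB control probe sets read 1.97 higher at the 3' end than at the 5' end (log2), against 0.87 to 1.23 on the other 11 arrays; this difference is used as a measure of RNA quality. Changes and their standard errors (SE) come from 1 limma fit over all 12 arrays, and a gene was called at a Benjamini-Hochberg adjusted p under 0.05 over all genes kept.

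**Figure D1:**
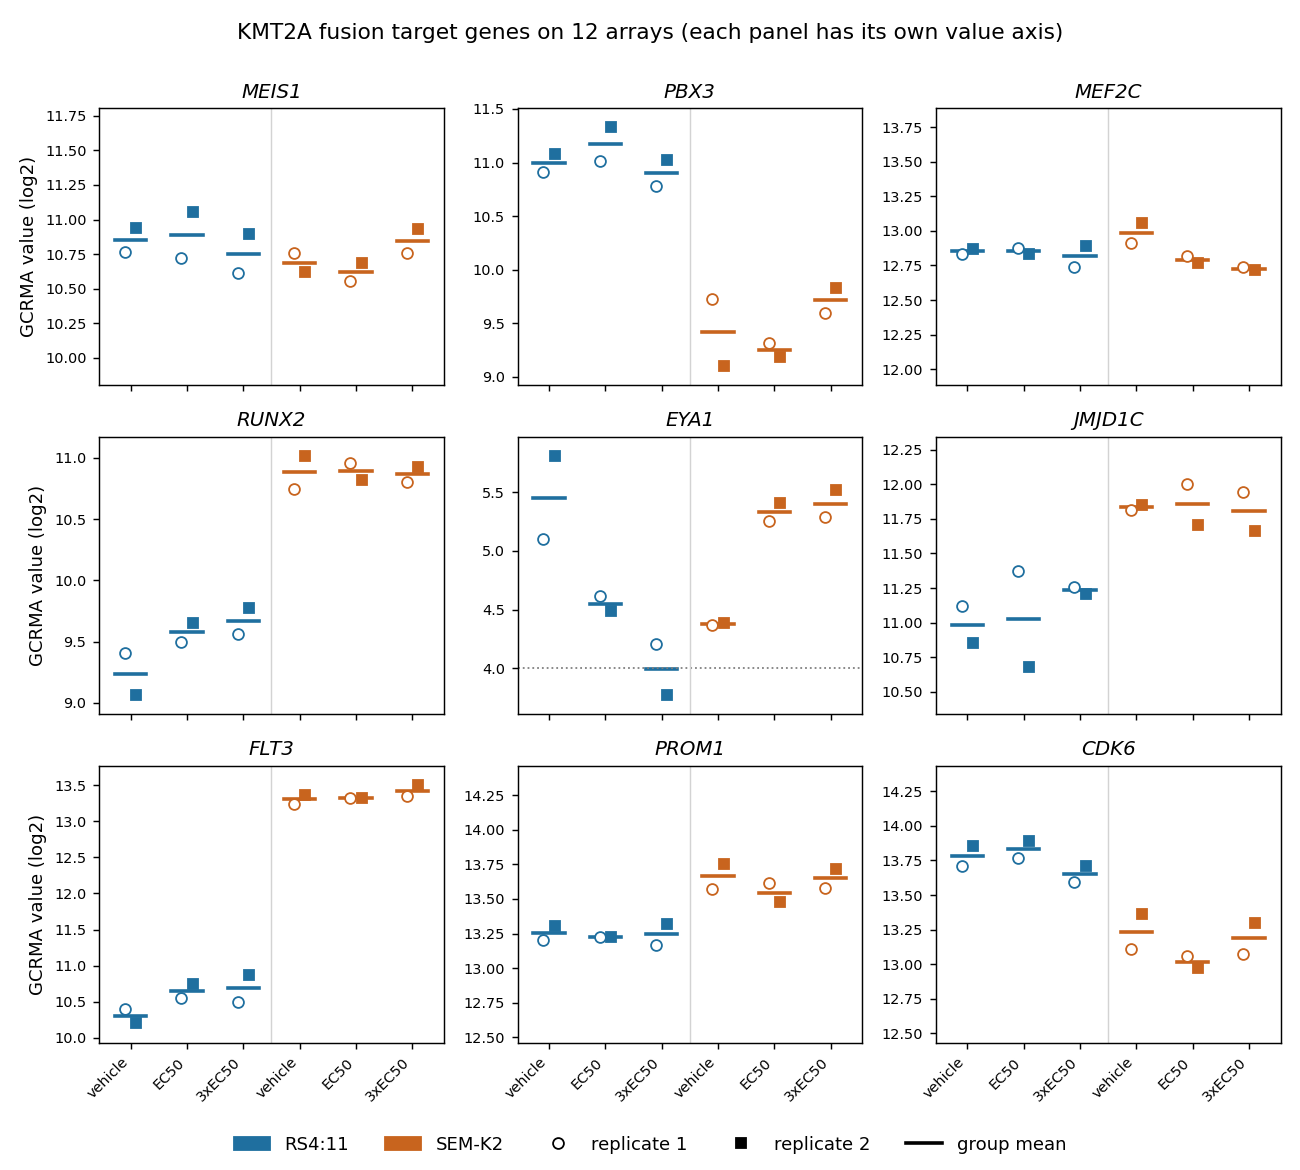
GCRMA values (log2, vertical axes, 1 scale per panel) of the 9 members on each of 12 arrays, by cell line (colour) and treatment (horizontal axis); open circles are replicate 1, filled squares replicate 2, bars the group means, and the dotted line in the EYA1 panel the floor of 4. FLT3 sat between 10.20 and 10.87 on all RS4:11 arrays and between 13.24 and 13.50 on all SEM-K2 arrays, while EYA1 was lower on all treated than on both vehicle arrays in RS4:11 and higher in SEM-K2.

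With vehicle alone, called untreated here, the 2 lines held the target genes at different levels. FLT3 and RUNX2 were higher in SEM-K2, by 3.00 ± 0.17 and 1.65 ± 0.17 (log2 difference ± SE, n = 2 arrays a group), and PBX3 and EYA1 were higher in RS4:11, with SEM-K2 minus RS4:11 at -1.58 ± 0.22 and -1.08 ± 0.24. MEIS1 and MEF2C differed by no more than about 1 SE. In this comparison 6 of 9 members were past the threshold used for all genes, where 19.6% of all genes were. With the replicate number as a block 7 of 9 were, which added PROM1, where 26.8% of all genes were. In the fit-free count 9 of 9 members had both SEM-K2 arrays on one side of both RS4:11 arrays, where 55.7% of all genes did. The members were chosen with these levels known, so these counts are no test and nothing is read from them. The median difference was 0.13 over the members and 0.01 over all genes.

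After 6 h of obatoclax most members stayed near their vehicle level. The median change over the members was 0.04 at EC50 and -0.04 at 3xEC50 in RS4:11, and -0.07 and -0.01 in SEM-K2, where the medians over all genes were 0.02, 0.02, 0.05 and 0.06. EYA1 departed from this, with lower values in treated RS4:11 and higher values in treated SEM-K2. In these 4 comparisons 0 of 9 members were past the limma threshold, a count that is no test of the members, since their changes were used to choose them. Over all genes 0% were called at either dose in RS4:11, 0.17% in SEM-K2 at EC50 and 0.824% in SEM-K2 at 3xEC50.

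Counted by overlap of arrays, 3 of 9 members in RS4:11 at EC50 had both treated arrays beyond both vehicle arrays, against 30.5% of all genes. At 3xEC50 in RS4:11 there were 5 of 9, against 34.3%. In SEM-K2 there were 3 of 9 at EC50, against 33.6%, and 3 of 9 at 3xEC50, against 36.6%. The rule that chose the members used these comparisons too, and nothing is read from the shares. The 2 doses of a line share their vehicle arrays, so their values are given side by side and not as independent results.

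**Figure D2:**
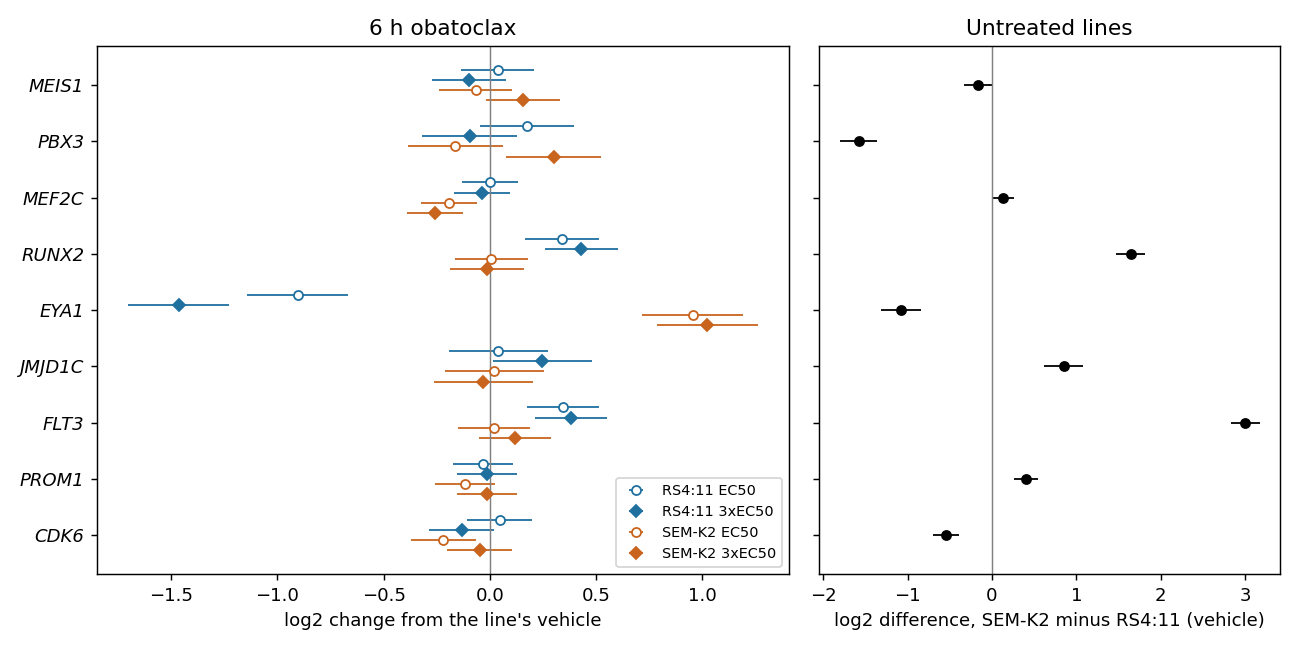
Left, log2 change from the line's own vehicle (horizontal axis) for each member at EC50 (open circles) and 3xEC50 (filled diamonds) in RS4:11 (blue) and SEM-K2 (orange); right, log2 difference between the untreated lines. Bars are SE from the fit over 12 arrays; EYA1 lies at -0.90 and -1.46 in RS4:11 and at 0.96 and 1.02 in SEM-K2, and the other members' changes lie between -0.26 and 0.43.

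MEIS1 and PBX3 encode homeodomain proteins of the TALE class, which bind DNA together with HOXA proteins. MEIS1 read 10.77 and 10.94 (log2, replicates 1 and 2) in RS4:11 with vehicle, 10.72 and 11.05 at EC50, and 10.61 and 10.90 at 3xEC50. In SEM-K2 it read 10.76 and 10.62 with vehicle, 10.55 and 10.69 at EC50, and 10.76 and 10.93 at 3xEC50. All 12 arrays therefore lay between 10.55 and 11.05. The treated and vehicle arrays overlapped except in SEM-K2 at 3xEC50, where both treated arrays were above both vehicle arrays (change 0.16 ± 0.17), the nearest pair apart by less than the decimals printed.

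PBX3, whose product pairs with MEIS1 and HOXA9, read 10.91 and 11.08 in RS4:11 with vehicle and 9.73 and 9.10 in SEM-K2 with vehicle. RS4:11 was thus 2.99-fold higher. Its values were 11.01 and 11.33 at EC50 and 10.78 and 11.02 at 3xEC50 in RS4:11. In SEM-K2 they were 9.32 and 9.19 at EC50, and 9.60 and 9.83 at 3xEC50. Every RS4:11 array was above every SEM-K2 array, and within each line treated and vehicle arrays overlapped at both doses. In SEM-K2 the vehicle replicates were 0.63 apart, more than the change of 0.30 ± 0.22 at 3xEC50.

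MEF2C encodes a MADS-box factor of lymphoid and myeloid progenitors. Its values with vehicle were 12.83 and 12.87 in RS4:11 and 12.91 and 13.06 in SEM-K2. In RS4:11 it read 12.87 and 12.83 at EC50, and 12.74 and 12.89 at 3xEC50, in each case overlapping vehicle. In SEM-K2 it read 12.82 and 12.76 at EC50, and 12.74 and 12.71 at 3xEC50. Here all 4 treated arrays lay below both vehicle arrays, with changes of -0.19 ± 0.13 and -0.26 ± 0.13.

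RUNX2, a Runt-domain factor best known from bone and from plasmacytoid dendritic cells, read 9.41 and 9.07 in RS4:11 with vehicle. Its values there were 9.50 and 9.65 at EC50 and 9.56 and 9.78 at 3xEC50. All 4 treated RS4:11 arrays were above both vehicle arrays, by 0.34 ± 0.17 and 0.43 ± 0.17. In SEM-K2 it read 10.75 and 11.01 with vehicle, 10.96 and 10.82 at EC50, and 10.81 and 10.93 at 3xEC50. The SEM-K2 groups overlapped, with changes of 0.01 ± 0.17 and -0.01 ± 0.17, and every SEM-K2 array lay above every RS4:11 array.

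EYA1 encodes a protein phosphatase and coactivator that works with homeodomain proteins of the sine oculis family. It read 5.10 and 5.81 in RS4:11 with vehicle, 4.62 and 4.49 at EC50, and 4.21 and 3.77 at 3xEC50. In SEM-K2 it read 4.37 and 4.39 with vehicle, 5.26 and 5.41 at EC50, and 5.29 and 5.52 at 3xEC50. All treated RS4:11 arrays lay below both of their vehicle arrays, and all treated SEM-K2 arrays above both of theirs. The changes were -0.90 ± 0.24 and -1.46 ± 0.24 in RS4:11 and 0.96 ± 0.24 and 1.02 ± 0.24 in SEM-K2, where the arrays of the 2 doses overlapped. Without RS4:11 vehicle replicate 2 the change in RS4:11 at EC50 was -0.55.

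In order of group mean, EYA1 stood at 5.45 ± 0.50 (SD, n = 2) in RS4:11 with vehicle, 5.40 ± 0.17 in SEM-K2 at 3xEC50 and 5.34 ± 0.11 in SEM-K2 at EC50, 3 groups that did not differ beyond their spread. Below them, with arrays that did not overlap between neighbours, lay RS4:11 at EC50 with 4.55 ± 0.09, SEM-K2 with vehicle at 4.38 ± 0.015 and RS4:11 at 3xEC50 with 3.99 ± 0.31. The last mean is just under the floor, so the lower level in RS4:11 at 3xEC50 is at least 2.74-fold, counted from the floor. All 12 values lay between 3.77 and 5.81, near the floor of 4. At each dose EYA1 was the one member whose lines moved in opposite directions on all arrays, a pattern held by 1.54% of all genes at EC50 and 2.59% at 3xEC50. EYA1 was picked for this pattern, which is given as values with no test.

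JMJD1C encodes a Jumonji-domain protein of chromatin, related to the histone demethylases KDM3A and KDM3B. It read 11.12 and 10.85 in RS4:11 with vehicle, 11.38 and 10.68 at EC50, and 11.26 and 11.21 at 3xEC50. In SEM-K2 it read 11.82 and 11.85 with vehicle, 12.01 and 11.71 at EC50, and 11.95 and 11.66 at 3xEC50. SEM-K2 with vehicle was higher by 0.85 ± 0.23. In RS4:11 at 3xEC50 both treated arrays were above both vehicle arrays (change 0.25 ± 0.23), and the other treated groups overlapped vehicle. The RS4:11 arrays at EC50 were 0.70 apart, and the changes with drug ran from -0.03 to 0.25, each with an SE of 0.23.

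FLT3 is the receptor tyrosine kinase of early lymphoid and myeloid progenitors, known for high expression in KMT2A-rearranged lymphoblastic leukaemia. With vehicle it read 10.41 and 10.20 in RS4:11 and 13.24 and 13.37 in SEM-K2, so that SEM-K2 was 8.0-fold higher. In RS4:11 it read 10.55 and 10.75 at EC50, and 10.50 and 10.87 at 3xEC50. All 4 treated RS4:11 arrays lay above both vehicle arrays, with changes of 0.35 ± 0.17 and 0.38 ± 0.17. In SEM-K2 it read 13.33 and 13.32 at EC50, and 13.35 and 13.50 at 3xEC50, overlapping vehicle at both doses.

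PROM1 encodes CD133, a membrane glycoprotein of stem and progenitor cells. It read 13.20 and 13.31 in RS4:11 with vehicle and 13.57 and 13.75 in SEM-K2 with vehicle, a difference of 0.41 ± 0.14. Its treated arrays read 13.17 to 13.32 in RS4:11 and 13.48 to 13.72 in SEM-K2. Treated and vehicle arrays overlapped in both lines, and the changes ran from -0.12 to -0.01.

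CDK6, the kinase that with D-type cyclins inactivates the RB protein, read 13.71 and 13.86 in RS4:11 with vehicle and 13.11 and 13.36 in SEM-K2 with vehicle. SEM-K2 minus RS4:11 was -0.55 ± 0.15. At EC50 it read 13.77 and 13.89 in RS4:11, and 13.06 and 12.98 in SEM-K2. At 3xEC50 it read 13.60 and 13.71 in RS4:11, and 13.08 and 13.30 in SEM-K2. SEM-K2 at EC50 and RS4:11 at 3xEC50 lay below both of their vehicle arrays, by -0.22 ± 0.15 and -0.13 ± 0.15, the latter by less than the decimals printed for the nearest pair, and the other treated groups overlapped vehicle.

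The array carried 29 probe sets for the 9 genes, 24 of them above the floor, and the other probe sets of a gene were read from the same arrays. FLT3, PBX3 and PROM1 had 1 probe set each. The 2 of MEIS1 read alike, with changes from -0.10 to 0.16. For RUNX2, 2 further probe sets above the floor gave larger differences between untreated lines (2.02 and 2.08) and values above 0 in SEM-K2 as well (0.34 to 0.46), where the probe set used gave about 0. Its other 3 probe sets lay under the floor throughout, and the mean of all 6 gave a difference between untreated lines of 1.01. The second probe set of EYA1 lay between 2.21 and 2.25 on all arrays, so the pattern of EYA1 rests on 1 probe set.

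Within JMJD1C, CDK6 and MEF2C some probe sets read lower in SEM-K2 at 3xEC50 than the one used. A probe set of JMJD1C changed by -1.34, from 7.26 and 8.59 with vehicle to 7.15 and 6.03, with 6.90 and 6.93 at EC50. A probe set of MEF2C changed by -0.96, from 9.69 and 10.12 to 9.28 and 8.62. A probe set of CDK6 changed by -1.24, from 9.29 and 9.48 to 9.30 and 6.99. The low value of each was on SEM-K2 3xEC50 replicate 2, the array with the large 3' to 5' difference. Without that array the changes were -0.78, -0.63 and -0.08. The part of RNA quality in these changes at 3xEC50 was not tested. In SEM-K2 at EC50, a comparison without that array, the same probe sets changed by -1.01, -0.45 and -0.26. These falls were larger in replicate 2 than in replicate 1. From vehicle to EC50 that of CDK6 went from 9.29 to 9.36 in replicate 1 and from 9.48 to 8.90 in replicate 2. That of MEF2C went from 9.69 to 9.49 and from 10.12 to 9.42. SEM-K2 EC50 replicate 2 had the second largest 3' to 5' difference, 1.23. The part of RNA quality was not tested at EC50 either. At EC50 all probe sets of CDK6 in SEM-K2 lay between -0.51 and -0.11 and those of MEF2C between -0.45 and -0.19. Those of JMJD1C above the floor ran from -1.01 to 0.09.

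**Figure D3:**
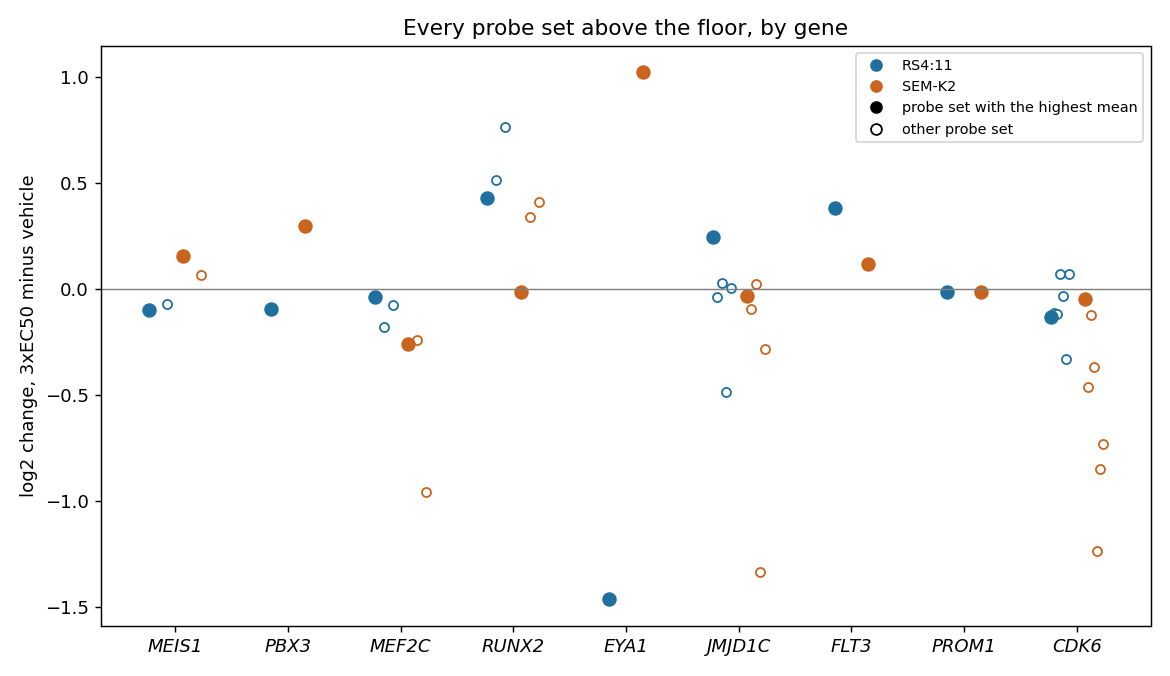
Log2 change at 3xEC50 from vehicle (vertical axis) for each of the 24 probe sets above the floor, grouped by gene (horizontal axis), in RS4:11 (blue) and SEM-K2 (orange); filled points are the probe sets used, open points the others. In SEM-K2 the probe sets of CDK6 run from -1.24 to -0.05 and those of JMJD1C from -1.34 to 0.03, while the probe sets of MEIS1 lie close together.

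Across the 12 arrays, after each line's mean was subtracted, FLT3 and RUNX2 followed each other with a Pearson correlation of 0.90, and MEIS1 and PBX3 with 0.82. The next highest pair of members was PROM1 and CDK6 (0.80). The lowest pairs were MEIS1 and JMJD1C (-0.78) and RUNX2 and EYA1 (-0.72). Among all genes kept, the one most like FLT3 was RXRA (0.92), which encodes a retinoid X receptor and was also second for RUNX2 (0.91). RXRA changed by 0.81 and 0.92 in RS4:11 and by 0.06 and 0.14 in SEM-K2. For EYA1 the nearest genes were EDEM1 (0.87), which acts in disposal of misfolded glycoproteins, and PDPK1 (0.86), a kinase upstream of AKT. EDEM1 changed by -0.23 and -0.44 in RS4:11 and by 0.25 and 0.43 in SEM-K2, on a smaller scale than EYA1.

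The nearest genes of the other members were NPLOC4 and MED22 for MEIS1 (0.95 each), CXXC1 and CYB561A3 for PBX3 (0.92 each), KIF21A (0.96) and SNHG4 (0.94) for MEF2C, and ITSN2 (0.94) for RUNX2. They were NEDD1 and SLC71A1 for JMJD1C (0.95 each), WDFY2 (0.93) and UPF2 (0.91) for PROM1, and SS18L1 (0.92) for CDK6. These correlations are descriptions over 12 arrays that share treatments and replicate numbers. Replicate 1 was above replicate 2 in 1 of 6 groups for MEIS1, in 1 of 6 for CDK6 and PROM1, and in 5 of 6 for JMJD1C.

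To set the members in their pathway, 2 lists were made from general knowledge, with earlier results of these data known. The p-values and shares given for the listed genes therefore do not come from lists drawn up blind to these data. The list of other targets held 30 genes, of which 19 had a probe set with that symbol alone and 17 were kept. The HOXA genes HOXA9 and HOXA10 and the gene RUNX1 are among those not analysed here. The list of partners and relatives held 45 genes that pair with, act beside or resemble the members, of which 28 were kept. Together they gave 45 genes for testing.

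Between untreated lines, 12 of the 45 pathway genes differed, 9 higher in SEM-K2 and 3 higher in RS4:11, a share to be set beside the 19.6% of all genes. Among other targets, LGALS1, which encodes the lectin galectin-1, was higher in SEM-K2 by 3.24 ± 0.37 (adjusted p = 2.25e-04, limma). GNAQ, a G protein subunit gene, was higher by 1.89 ± 0.23 (adjusted p = 3.15e-04), and the chromatin factor gene HMGA2 by 1.5 ± 0.17 (adjusted p = 2.19e-04). MYB, which encodes a transcription factor of blood progenitors, was higher in RS4:11, with SEM-K2 minus RS4:11 at -1.22 ± 0.15 (adjusted p = 3.50e-04). SENP6 and CSPG4, the latter the gene of the NG2 antigen typical of these leukaemias, were the other targets called, both higher in SEM-K2. The median over the 17 other targets was 0.22, and over all genes 0.01.

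Among partners and relatives, the cell cycle inhibitor gene CDKN2A was at 3.30 ± 0.96 (log2, SD, n = 2) in RS4:11 and 11.14 ± 0.44 in SEM-K2 with vehicle, at least 141-fold higher in SEM-K2 counted from the floor (adjusted p = 7.00e-07, limma). CCND3, a D-type cyclin partner of CDK6, was higher in RS4:11 (SEM-K2 minus RS4:11 -1.46 ± 0.23, adjusted p = 0.00155). HDAC9, a deacetylase that represses MEF2 factors, was higher in RS4:11 as well (-2.72 ± 0.26, adjusted p = 6.72e-05), and its relative HDAC4 was higher in SEM-K2 (0.97 ± 0.23, adjusted p = 0.0156). MEIS2 and PIM1 were also called, both higher in SEM-K2. PIM1 was under the floor in RS4:11 and at least 1.85-fold higher in SEM-K2. The median over these 28 genes was -0.06.

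Of these calls 4 depended on single arrays. CSPG4 and HDAC4 were not called without SEM-K2 vehicle replicate 1 (or without RS4:11 vehicle replicate 2), with adjusted p from limma of 0.107 to 0.137 and 0.0801 to 0.0941. MEIS2 was lost without RS4:11 vehicle replicate 2 or either SEM-K2 vehicle or EC50 array (adjusted p 0.0538 to 0.221). PIM1 was lost without any RS4:11 vehicle, RS4:11 3xEC50, SEM-K2 vehicle or SEM-K2 EC50 array (adjusted p 0.0575 to 0.210). With the replicate block, LMO2, IGF2BP3, CBFA2T3, EYA4, CDKN2D and KDM3A were called too, for 18 of 45, while the share of all genes called went from 19.6% to 26.8%. Using probe set means took HMGA2 to 0.54, HDAC9 to -1.46 and CDKN2A to 5.32, all still called, and ended the calls of CSPG4 (0.50) and HDAC4 (0.51), and leaving out the filter on low values those of HDAC4, MEIS2 and PIM1.

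With drug, 1 of the 45 pathway genes was called. MYB rose in SEM-K2 at 3xEC50 by 0.93 ± 0.15 (adjusted p = 0.0282, limma), from 11.82 and 11.85 with vehicle to 12.65 and 12.89, with 12.40 and 12.46 at EC50. In RS4:11 it read 13.08 and 13.04 with vehicle, 13.32 and 13.51 at EC50, and 13.27 and 13.50 at 3xEC50. Treated arrays were above vehicle arrays in both lines, and all SEM-K2 values lay under all RS4:11 values. The difference between the lines in the response of MYB did not pass the test at either dose. The MYB call was lost in a fit of the 6 SEM-K2 arrays alone (adjusted p = 0.179, limma), where the change was still 0.93. That fit called 3 of all genes, against 87 in the main fit. The call was also lost without SEM-K2 3xEC50 replicate 2, or without any SEM-K2 vehicle, SEM-K2 EC50, RS4:11 vehicle or RS4:11 3xEC50 array. Without 1 of these arrays the change lay between 0.81 and 0.95.

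In SEM-K2 at 3xEC50, 34 of the 45 pathway genes (75.6%) lay above 0, against 58.6% of all genes, with a median of 0.17 against 0.06 over all genes, and 13 (28.9%) had an unadjusted p under 0.05, against 11.7% of all genes. The replicate block called 3 of them, adding CBFA2T3, a RUNX1-associated corepressor gene (at least 1.83-fold higher counted from the floor, adjusted p = 0.0426), and HDAC9 (-0.89, adjusted p = 0.0486). MYC, a known target that is not called here, stood at -0.47 ± 0.19 (adjusted p = 0.378). The kinase genes PIM1 and PIM2, which act downstream of FLT3, stood at 1.06 ± 0.41 and 0.96 ± 0.23 (adjusted p = 0.354 and 0.135), and the relatives of EYA1 were split, with EYA3 at 0.10 ± 0.19 and EYA4 at -0.67 ± 0.25. The block called more of all genes too, 220 of 10561 genes against 87. Both SEM-K2 at 3xEC50 and the difference between the lines at 3xEC50 include SEM-K2 3xEC50 replicate 2. The part of that array, the one with the large 3' to 5' difference, in the shares of these comparisons was not tested.

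In the other comparisons limma called 0 of 45. The numbers with an unadjusted p under 0.05 were 5 in SEM-K2 at EC50 (11.1%, against 5.47% of all genes), 3 in RS4:11 at EC50 (6.67%, against 4.2%) and 2 in RS4:11 at 3xEC50 (4.44%, against 4.9%), and the replicate block called 0 in each. The median of the 45 genes was 0.18 in SEM-K2 at EC50, 0.16 in RS4:11 at EC50 and 0.19 in RS4:11 at 3xEC50. Over all genes these medians were 0.05, 0.02 and 0.02. In the same order 80%, 82.2% and 68.9% of the 45 genes lay above 0, against 61.9%, 55.7% and 54% of all genes. A share above that of all genes was thus not particular to SEM-K2 at 3xEC50. Tests of the difference between the lines called 0 of 45 at EC50, where 0.00947% of all genes were called and 1 pathway gene (2.22%) had an unadjusted p under 0.05, against 1.75% of all genes. At 3xEC50 they called 0 of 45, where 0.0379% of all genes were called and 6 (13.3%) had an unadjusted p under 0.05, against 3.69% of all genes.

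CBFB, the common partner of RUNX proteins, was chosen after its values were seen, because both doses put its lines on opposite sides of vehicle. It changed by -0.15 and -0.24 in RS4:11 and by 0.05 and 0.16 in SEM-K2, each with an SE of 0.14. The difference of 0.40 ± 0.20 at 3xEC50 did not pass the test (adjusted p = 1, limma). CSPG4 had opposite directions on all arrays at 3xEC50, with a difference of -0.46 that did not pass either. No other list gene had this pattern, which 1.54% of all genes held at EC50 and 2.59% at 3xEC50. Both genes were picked here for the pattern, so neither result is a test of it.

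**Figure D4:**
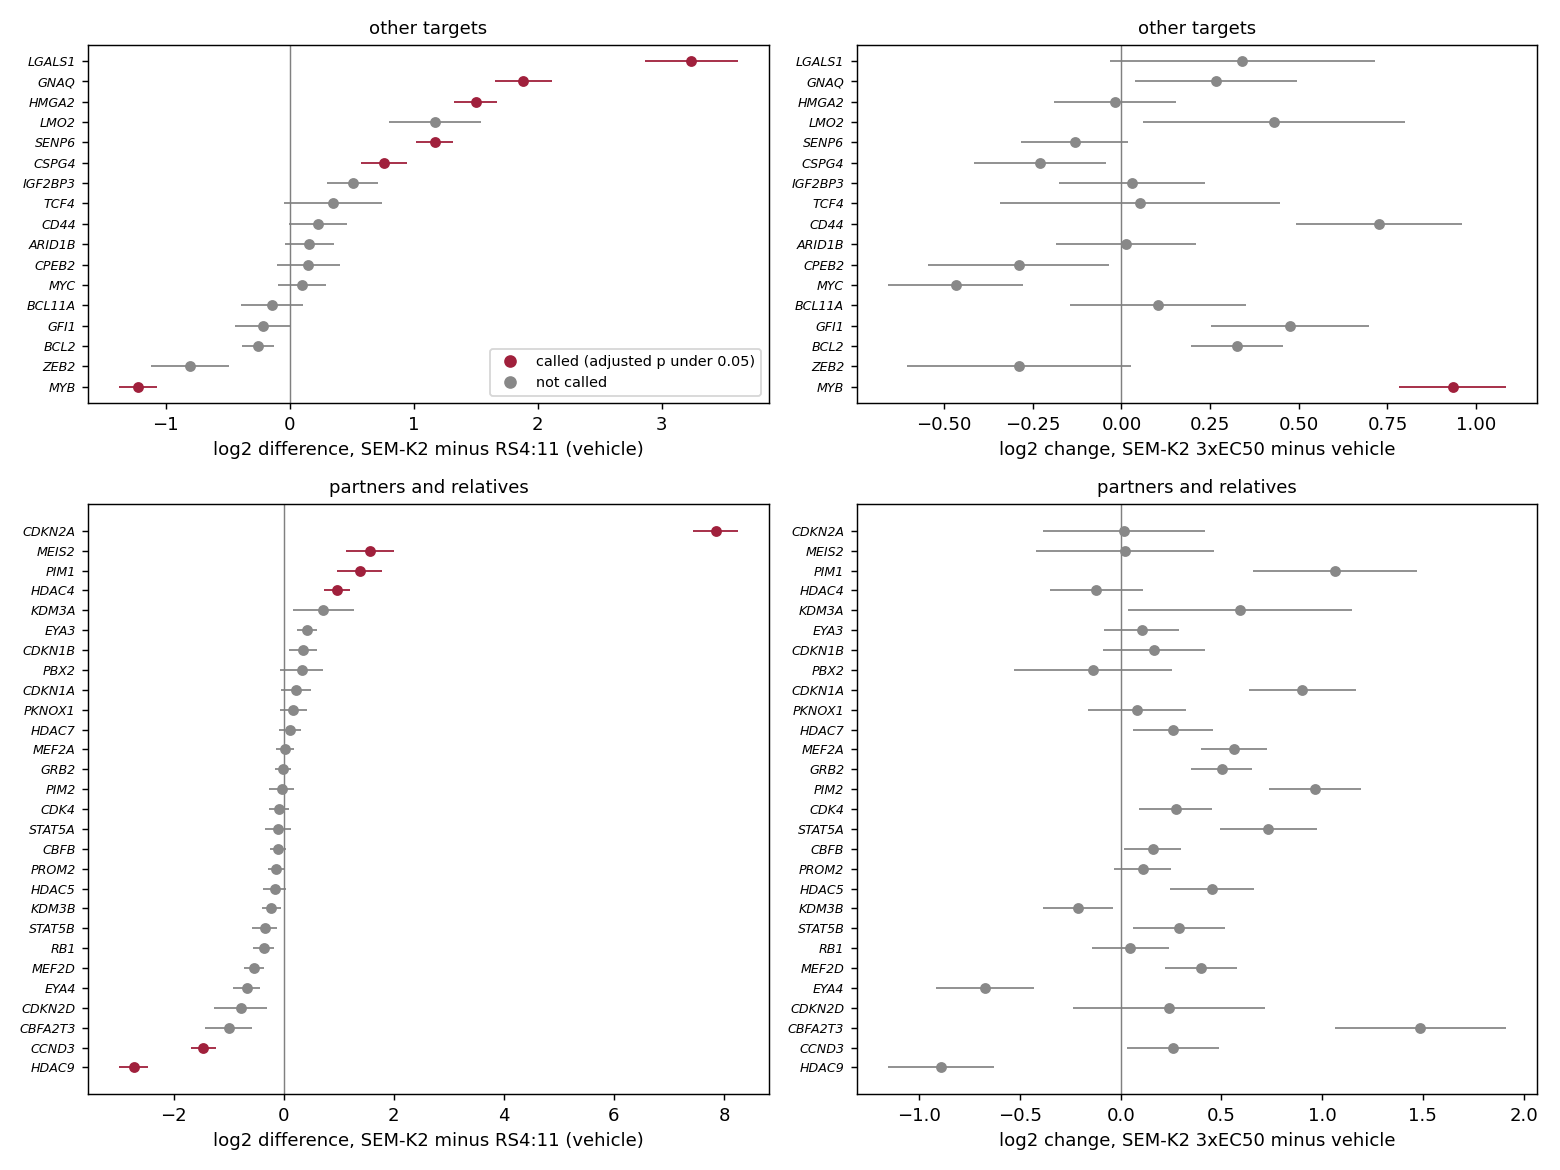
Left column, log2 difference between the untreated lines for each tested gene of the 2 lists (vertical axes, ordered by that difference); right column, log2 change in SEM-K2 at 3xEC50 for the same genes. Points are estimates, bars SE from the fit over 12 arrays, and red marks genes called at an adjusted p under 0.05: 12 of 45 between lines and 1, MYB at 0.93, with drug.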

How the data were processed

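The authors deposited 1 table of log2 values for 54675 probe sets on 12 arrays, made with GCRMA per the submitters' processing notes, which give no version; the log2 scale was read from the values. Scanner files were not used here. Of the probe sets, 41097 had 1 gene symbol in the platform annotation; 62 control probe sets were left out. Each gene was represented by its probe set with the highest mean, and genes above 4 in at least 2 arrays were kept (10561).

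The fit used limma 3.58.1 (lmFit, then eBayes) under R 4.3.3, with 6 group means, 6 residual and 3.27 prior degrees of freedom, all groups sharing 1 spread, and Benjamini-Hochberg adjustment over all genes kept. The script was tested on simulated data. Replicate numbers pair the samples: differences between replicates 1 and 2 correlated at 0.19 to 0.60 in all 15 pairs of groups, so a fit with the replicate number as a block was made. Unless it is named, values come from the fit without it.

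The members and lists were chosen with earlier results of these data known. The rule named all members, HOXA9 and HOXA10 (not analysed here), up to 4 called genes per list and comparison with the smallest adjusted p, and the 2 genes most correlated with each member, of which 1 is not reported here. The other list genes in the text were named after their values were seen. Alternatives changed the block, arrays, spread estimate, probe sets, filter and centring. A value taken without 1 array for single probe sets was added after the data were seen.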

Additional observations from a re-analysis of the deposited data

Results flagged for a closer look

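EYA1 stood out because every treated RS4:11 array was below, and every treated SEM-K2 array above, the vehicle arrays of its line. The change in SEM-K2 minus that in RS4:11 was 1.86 on the log2 scale at EC50 and 2.49 at 3xEC50. No test of this difference is given, since EYA1 was chosen for it.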

How the results depend on the processing

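The changes of EYA1 with drug kept their sign in all 18 alternatives that gave a value, from -1.26 to -0.55 in RS4:11 at EC50, -1.82 to -1.11 at 3xEC50, 0.88 to 1.03 in SEM-K2 at EC50 and 0.91 to 1.14 at 3xEC50. Changes of other members changed sign in up to 4 of 20 alternatives, and not all of these were near 0. In SEM-K2 PBX3 ran from -0.01 to 0.61 at 3xEC50 (0.30 in the main fit) and from -0.48 to 0.15 at EC50 (-0.16). In RS4:11 at 3xEC50 JMJD1C ran from -0.02 to 0.38 (0.25). The count of pathway genes called in SEM-K2 at 3xEC50 was 1, where 87 of all genes were called. It became 3 with the replicate block, where 220 of all genes were called. In a fit of only the line's own 6 arrays it was 0, where 3 of all genes were called. The count of pathway genes also changed when single arrays were left out. The members' median difference between untreated lines was 0.13, and moved to 0.28 when a gene's probe sets were averaged and to 0.27 when genes had to exceed 6, which left out EYA1. Probe set averaging also moved the SEM-K2 3xEC50 change of CDK6 from -0.05 to -0.54, that of JMJD1C from -0.03 to -0.29 and that of MEF2C from -0.26 to -0.48. It moved the difference between untreated lines of RUNX2 from 1.65 to 1.01, of JMJD1C from 0.85 to 0.49 and of CDK6 from -0.55 to -0.71. Of 881 alternative values for single members 15 moved by more than the spread between replicates. The averages of RUNX2 and JMJD1C included probe sets under the floor. Those had differences between untreated lines of 0.06 to 0.13 for RUNX2 and 0.09 for JMJD1C. Beyond this, the cause of the shifts was not tested. With 2 arrays a group, leaving out 1 array cannot move a member's change by more than that spread. The replicate block and the other spread estimate leave the changes as they are. The count of 15 is therefore no measure of stability. The counts and medians of the other comparisons stayed within 1.5 times or 1 SD under the alternatives run. The replicate block raised the genes called in SEM-K2 at EC50 from 18 to 46. The fit of 1 line could not give differences between lines, and EYA1 could not be fitted with a floor of 6 or as a mean of its probe sets, which fell under the filter.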
